A study of Mus musculus with 8 samples.

Results

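A set of 9 surface receptors through which T cells enter, hold on to or leave tissue were followed across T cells from the pancreas of diabetic NOD mice. The 9 genes, of the 32285 features counted, were chosen by name: the integrin alpha chains Itga1, Itgae, Itga4 and Itgal, the beta chains Itgb1 and Itgb7, Selplg, and the sphingosine-1-phosphate receptors S1pr1 and S1pr4. Selplg encodes PSGL-1, which is a ligand of selectins and not a selectin itself. The study collected 8 single-cell libraries of CD45+ CD3+ TcR-beta+ lymphocytes sorted from the pancreas of female NOD mice, a strain with spontaneous autoimmune diabetes. The labels give an age of 3 to 4 months in 1 field and 3 to 5 months in another. A single library came from actively diabetic mice, whose glucose exceeded 600 mg/dl, and 1 from animals at onset (250 mg/dl), both harvested on day 1 without treatment. The other 6 came from newly diabetic mice given PPCA or vehicle daily and named for day 2, 3 or 4, with 1 library per treatment and day. The labels leave unclear whether the day in a sample's name counts days of treatment or the day of harvest, and it is called the harvest day here. PPCA is nutlin-3 (50 mg/kg), an inhibitor of MDM2, given with MK-1775 (25 mg/kg), an inhibitor of the kinase WEE1. The vehicle was a mixture of ethanol, Tween 20 and PEG300. All animals carried the NOD background, and the labels do not say how many mice went into a library.

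Integrins are alpha-beta pairs on the cell surface that bind matrix or other cells. CD49a (Itga1) pairs with Itgb1 and binds collagen, CD103 (Itgae) pairs with Itgb7 and binds E-cadherin on epithelium, and CD49d (Itga4) pairs with either beta chain to bind VCAM-1 or MAdCAM-1. CD11a (Itgal) pairs with the product of Itgb2 to form LFA-1, which binds ICAM-1. PSGL-1 lets T cells roll on endothelial selectins after glycosylation and sulfation. S1pr1 draws T cells out of tissue towards sphingosine-1-phosphate in lymph and blood, and its transcription is driven by KLF2. S1pr4 is a related receptor of lymphocytes. CD49a and CD103 are widely used as surface markers of T cells that stay in tissue.

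The genes lie on 9 different chromosomes (GRCm38, GENCODE M21): Selplg on chromosome 5 from 113818536 to 113832644, S1pr1 on chromosome 3 from 115710433 to 115715072, Itgae on chromosome 11 from 73090583 to 73147446, and Itgal on chromosome 7 from 127296260 to 127335138. For the other 5 members the position of the promoter window is given, for 4 of them with its sequence. Promoters were matched by symbol in the RefSeq table (GRCm38.p6) for 5 of the 9 members, and the 250 bases before the start of the integrin chains Itga1, Itga4, Itgb1 and Itgb7 are printed here, since these 4 genes differed between T cell subsets by unequal amounts. Each is written 5′ to 3′ on the strand of the gene, with capitals at CACCC or its reverse complement GGGTG, the core of sites bound by KLF factors. The windows are chr13:115101965-115102214 (minus strand), chr2:79255176-79255425 (plus), chr8:128685404-128685653 (plus) and chr15:102231936-102232185 (minus).
Itga1: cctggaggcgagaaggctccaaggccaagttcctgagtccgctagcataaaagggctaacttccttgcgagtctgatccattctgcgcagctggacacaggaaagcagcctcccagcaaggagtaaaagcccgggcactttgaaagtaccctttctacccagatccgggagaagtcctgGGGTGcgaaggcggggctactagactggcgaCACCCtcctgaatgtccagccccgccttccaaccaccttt
Itga4: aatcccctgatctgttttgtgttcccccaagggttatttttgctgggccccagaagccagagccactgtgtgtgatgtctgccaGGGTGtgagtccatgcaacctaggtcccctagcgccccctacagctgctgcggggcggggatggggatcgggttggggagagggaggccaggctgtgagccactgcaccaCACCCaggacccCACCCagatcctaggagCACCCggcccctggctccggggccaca
Itgb1: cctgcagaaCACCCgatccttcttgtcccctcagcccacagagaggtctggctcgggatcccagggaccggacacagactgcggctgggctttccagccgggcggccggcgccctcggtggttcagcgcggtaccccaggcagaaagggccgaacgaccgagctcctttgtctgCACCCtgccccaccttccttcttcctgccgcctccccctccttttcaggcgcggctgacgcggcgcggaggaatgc
Itgb7: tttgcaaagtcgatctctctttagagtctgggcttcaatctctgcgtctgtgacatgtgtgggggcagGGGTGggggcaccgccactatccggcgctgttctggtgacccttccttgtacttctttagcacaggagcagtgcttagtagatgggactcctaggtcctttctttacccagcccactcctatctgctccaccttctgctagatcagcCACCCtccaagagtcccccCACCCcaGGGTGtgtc

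The KLF core occurred 2 times in the Itga1 window, 4 times in that of Itga4, 2 times in that of Itgb1 and 4 times in that of Itgb7. A single match was found in the S1pr4 window at chr10:81500138-81500387 (minus strand). Such a short word is common: 52.0% of 32851 promoter windows of the same length held at least 1. A GC box (GGGCGG or CCGCCC) was present in the Itga4 and Itgb1 windows and in 32.7% of all windows. The RUNX core TGTGGT or its reverse complement ACCACA was found in the Itga4 window alone among these 5, against 14.0% of all windows. The T-box core AGGTGT or ACACCT was in none of the 5 and in 11.8% of all. All words were searched on both strands, and these matches are descriptions of letters.

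The libraries held 7023 to 13129 barcodes and 36934580 to 67603740 UMIs (unique molecular identifiers, 1 per captured transcript), and 6140 to 11510 cells per library were kept as T cells, with a median of 3850 to 6447 UMIs. The T cell gate itself used 6 receptor and CD3 genes. It also allowed at most 1 UMI over Cd79a, Cd79b, Ms4a1, Lyz2, Csf1r and Cd68. The level of any of these genes in the kept cells is therefore no check of the label. In the active library, which had the lowest such share, 6956 of the 7084 cells past the quality filters met the gate. Levels are given in CPM (counts per 1000000 UMIs of the summed cells). T cells were divided by transcripts: CD4 (Cd4 detected, no Cd8a or Cd8b1; 27425 cells), CD8 (the reverse; 21903 cells), CD8 with or without a Ccl5 UMI (6485 and 15418 cells), and Foxp3+ whatever the gate (2560 cells). Ccl5 encodes a chemokine of antigen-experienced CD8 T cells, and Foxp3 is the transcription factor of regulatory T cells. Transcripts of Y-linked genes were present in 4 libraries, vehicle days 2 and 3 and PPCA days 3 and 4, although the labels give female mice. They were at 186 to 273 CPM there and at most 0.169 CPM in the others. Xist was at 0.331 to 0.747 CPM there and 415 to 616 CPM in the others, against the female label for those 4. On day 2 vehicle alone carried Y-linked transcripts, and on day 4 PPCA alone. The 4 comparisons of subsets were therefore also fitted within the libraries with and without these transcripts. PPCA fits within a subset were also made with a term for them. Pairs of libraries shared 7 to 30 cell barcodes, at most 0.374% of the smaller. Subsets were compared in edgeR on UMI sums per library, paired by library, with Benjamini-Hochberg adjustment over all genes tested. The edgeR p-values rest on the spread between these libraries, with each gene's variance drawn towards that of other genes. They can therefore be smaller than a gene's own spread would give, most of all with few residual degrees of freedom. A summed level cannot tell fewer cells with a transcript from less of it per cell, so shares of cells with a UMI were also taken after thinning each cell to 2000 UMIs.

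The 2 residency-associated alpha chains had different ranges across subsets, while within Ccl5+ CD8 cells they went together (given with the Itgae split). Among the gated cells Itga1 (CD49a) was highest in Ccl5+ CD8 T cells, at 59.2 (lowest, the day 3 vehicle library), 91.1 (median) and 213 CPM (highest, the onset library) over the 8 libraries. In Ccl5- CD8 cells it was at 0.0670 to 1.07 CPM, with 1 to 7 UMIs per library and 25 in all against 3756. The lowest Ccl5+ library was thus above the highest Ccl5- library. In Foxp3+ cells Itga1 was at 0.755 to 10.9 CPM (median 3.12) on 53 UMIs, and in CD4 cells at 0.804 to 2.37 CPM (median 1.20) on 188 UMIs. The 20739 T cells in neither the CD4 nor the CD8 gate (21.7% to 35.1% of T cells by library) were not part of these sums, and 0.907% of them had an Itga1 UMI after thinning to 2000 UMIs per cell.

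Itgae (CD103) was instead shared by both parts of the CD8 gate and by Foxp3+ cells. Its level was 40.0 (lowest, the day 4 PPCA library), 50.3 (median) and 67.8 CPM (highest, the onset library) in CD8 cells, and 29.6 (lowest, the day 3 PPCA library), 41.4 (median) and 57.2 CPM (highest, the day 4 vehicle library) in Foxp3+ cells. These ranges overlapped, whereas CD4 cells without Foxp3 stayed at 0.421 to 2.31 CPM (median 1.11), below every CD8 and Foxp3+ library. In the order of levels (mean ± SD, n = 8, here and below), Itgae was highest in Ccl5+ CD8 cells (62.0 ± 19.8 CPM), then Ccl5- CD8 cells (46.2 ± 7.17 CPM), then Foxp3+ cells (42.8 ± 9.27 CPM). Neither neighbouring pair in that order passed an exact sign-flip test of the levels (8 libraries, adjusted p = 0.0938 and 0.442 over 27 such pairs, smallest possible unadjusted p = 0.00781), whereas the edgeR fit paired by library called Itgae higher in Ccl5+ than in Ccl5- cells (0.32 on the log2 scale, adjusted p = 0.00709).

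Their beta chains were distributed differently from the alpha chains. Itgb1 followed the order Ccl5+ CD8 (434 ± 138 CPM), Foxp3+ (336 ± 93.4 CPM), CD4 without Foxp3 (153 ± 78.1 CPM) and Ccl5- CD8 (77.3 ± 29.8 CPM), with every neighbouring pair past the sign-flip threshold (adjusted p = 0.0422, 0.0162 and 0.0162). Itgb7 was lowest in Ccl5+ CD8 cells (255 ± 48.0 CPM), 7 of 8 libraries lying below the CD4 cells without Foxp3 (304 ± 60.2 CPM, adjusted p = 0.0301). The other 2 neighbouring pairs in the order of Itgb7 levels did not pass the sign-flip test (adjusted p = 0.941 and 0.411), but the paired edgeR fit called Itgb7 lower in Foxp3+ cells than in CD4 cells without Foxp3 (-0.14, adjusted p = 0.00259). Scaled by library size alone, the sign turned (0.048) and the call was lost. In CPM, Foxp3+ cells had more Itgb7 in 5 of 8 libraries.

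Of the remaining members, Itga4 was highest in Ccl5+ CD8 (329.9 ± 71.9 CPM) and Foxp3+ cells (314 ± 55.5 CPM), which did not differ from each other beyond the spread (adjusted p = 0.879), and lowest in Ccl5- CD8 cells (178 ± 23.5 CPM). Itgal ran from 179.9 ± 33.0 CPM in Ccl5+ CD8 through 146 ± 26.2 CPM in Foxp3+ to 88.5 ± 21.1 CPM in Ccl5- CD8 cells. Selplg was higher in each CD8 group than in Foxp3+ cells and CD4 cells without Foxp3, at 405 ± 54.8 CPM in Ccl5+ and 315 ± 45.2 CPM in Ccl5- cells. S1pr1 ran the other way, from 551 ± 52.6 CPM in CD4 cells without Foxp3 to 254 ± 23.8 CPM in Ccl5+ CD8 cells. For S1pr4 no neighbouring pair of subsets passed the sign-flip test (adjusted p = 0.569 to 0.977), but the paired edgeR fit called it lower in Foxp3+ cells than in CD4 cells without Foxp3 (-0.22, adjusted p = 0.0118). That call was lost with scaling by library size alone (-0.032).

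**Figure D1:**
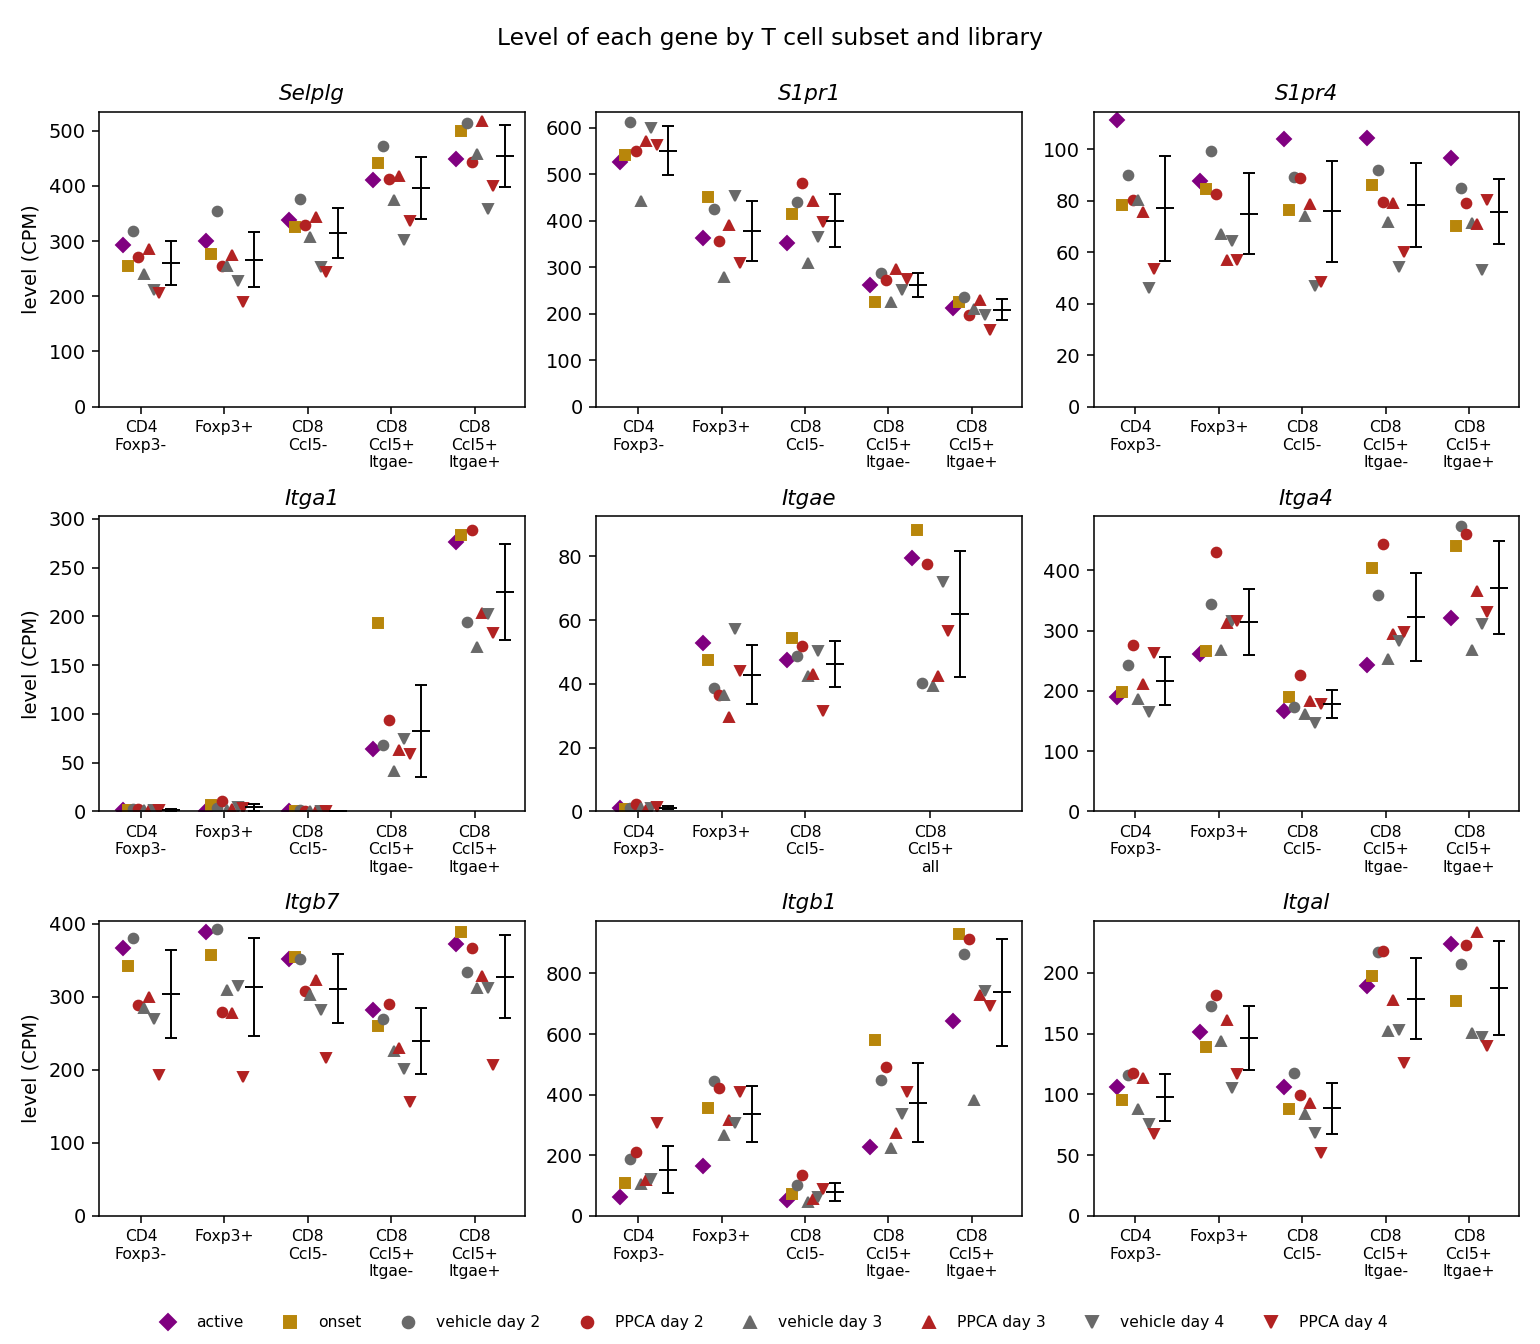
Level of each of the 9 genes in CPM by T cell subset, 1 point per library and the mean with SD of the 8 libraries beside them, Ccl5+ CD8 cells being divided by Itgae except in the Itgae panel. Itga1 points lie between 41.8 and 288 CPM in the 2 Ccl5+ groups, above every point of the other subsets, while the S1pr4 points of the subsets overlap.

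The comparison of CD8 with CD4 cells asks which of these receptors divide the main T cell lineages. Itgae, Itga1, Selplg and Itgal were higher and S1pr1 was lower in CD8 cells, 5 of 9 members called in 11529 genes tested, of which 46.3% were called (2701 or 23.4% higher and 2640 or 22.9% lower, against 2019 and 3443 scaled by library size alone). Itgae differed by a log2 fold change of 4.34 ± 0.092 (SE, with adjusted p = 2.14e-14), and pooled over libraries CD8 cells had 19.0 (exact 95% interval 17.1 to 21.1) times the CD4 level. Itga1 differed by 4.69 ± 0.18 (SE, with adjusted p = 9.18e-12) on the log2 scale, higher in 8 of 8 libraries. Natural killer and innate lymphoid markers summed to 12.3 to 55.7 CPM in CD8 and 0.412 to 3.14 CPM in CD4 cells. Gamma-delta T markers summed to 24.2 to 138 CPM in CD8 and 7.83 to 16.8 CPM in CD4 cells. The part of such cells in these differences was not tested.

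S1pr1, the exit receptor, was at 291 (lowest, the day 3 vehicle library), 345 (median) and 415 CPM (highest, the day 3 PPCA library) in CD8 cells and at 433 (lowest, the day 3 vehicle library), 545 (median) and 603 CPM (highest, the day 2 vehicle library) in CD4 cells. The highest CD8 library lay below the lowest CD4 library, and the fitted log2 fold change was -0.58 ± 0.036 (SE, with adjusted p = 3.31e-09). After thinning, 45.3% ± 3.54 against 61.2% ± 3.52 (SD, n = 8) of cells had an S1pr1 UMI, lower in 8 of 8 libraries (exact sign-flip p = 0.00781, adjusted p = 0.0137 over 35 share tests). Selplg was 0.45 higher on the log2 scale (adjusted p = 1.97e-09), and Itgal 0.25 higher (adjusted p = 0.000123), a call lost when libraries were not paired (adjusted p = 0.140).

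Itga4, Itgb7, S1pr4 and Itgb1 did not pass the threshold. For Itgb1 the CD8 levels were 88.4 (lowest, the day 3 vehicle library), 175 (median) and 326 CPM (highest, the day 2 PPCA library) and the CD4 levels 65.7 (lowest, the active library), 127 (median) and 313 CPM (highest, the day 4 PPCA library), widely overlapping. CD8 exceeded CD4 in 5 of 8 libraries, with log2 ratios from -0.57 to 1.40, and the fit gave 0.28 ± 0.16 (SE, with adjusted p = 0.174). The direction differed with the Y-linked transcripts: 0.75 (adjusted p = 0.000916) within the 4 libraries without them and -0.20 within the 4 with them, a difference that was not itself tested. Without the PPCA day 4 library the value was 0.40 (adjusted p = 0.0431), past the threshold, and without the low-count filter 0.27 passed as well, with a smaller standard error (0.031, adjusted p = 4.42e-17). Itga4 was also called within the libraries without Y-linked transcripts (0.21, adjusted p = 0.0148) and gave -0.061 (adjusted p = 0.231) within those with them. The share of CD8 cells with an Itgb1 UMI was nonetheless the larger in 8 of 8 libraries after thinning, 21.1% ± 7.69 against 14.1% ± 4.80 (SD, n = 8).

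The split of CD8 cells by Ccl5 asks which receptors go with an antigen-experienced state. Itga1, Itgb1, Itgal, Itga4, Itgae and Selplg were higher and S1pr1 and Itgb7 lower in Ccl5+ cells, 8 of 9 called, with 41.3% of 10359 genes called. With TMM factors 2033 genes (19.6%) were higher and 2245 (21.7%) lower, and with library size alone 3569 and 1221, the same 8 members being called. Itga1 had 382 (exact 95% interval 258 to 590.3) times the Ccl5- level over pooled counts, a ratio whose interval covers counting error only. Its fitted log2 fold change of 8.24 ± 0.14 (SE, with adjusted p = 5.24e-21) depends on the prior count, since the Ccl5- sums were so small. Itga1 passed the low-count filter through its Ccl5+ sums alone, so its place among the 8 calls restates these counts.

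Itgb1, the partner chain of Itga1, was at 317 CPM in the active library and 657 CPM in the onset library in Ccl5+ cells, against 53.6 and 72.6 CPM in Ccl5- cells. In the other libraries Ccl5+ cells ran from 246 CPM (vehicle day 3) to 566 CPM (PPCA day 2), and Ccl5- cells from 46.8 CPM (vehicle day 3) to 134 CPM (PPCA day 2). The 2 sets of libraries did not overlap, and the log2 fold change was 2.39 ± 0.073 (SE, with adjusted p = 1.31e-16). Itgal and Itga4 rose by 0.93 (adjusted p = 2.17e-13) and 0.76 (adjusted p = 3.67e-11) on the log2 scale, higher in 8 of 8 libraries each.

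Itgb7 moved against the other integrin chains, with 163 (lowest, the day 4 PPCA library), 259 (median) and 304 CPM (highest, the day 2 PPCA library) in Ccl5+ and 216 (lowest, the day 4 PPCA library), 316 (median) and 355 CPM (highest, the onset library) in Ccl5- cells. The ranges overlapped across libraries, but within each library Ccl5+ cells had less, and the log2 fold change was -0.41 ± 0.040 (SE, with adjusted p = 3.06e-08). Itgae, its partner, gave 0.32 ± 0.090 (SE, with adjusted p = 0.00709), higher in 5 of 8 libraries. That Itgae call was lost within the 4 libraries with Y-linked transcripts (0.083, adjusted p = 0.673), without both day 4 libraries (0.25, adjusted p = 0.0625) and without pairing (adjusted p = 0.185). By share, 10.6% ± 2.84 against 8.72% ± 1.29 (SD, n = 8) of thinned cells had an Itgae UMI (exact sign-flip p = 0.0859, adjusted p = 0.116), and before thinning 18.0% against 18.8%.

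Among the non-integrin members, Selplg was 0.26 higher (adjusted p = 4.68e-07), at 313 to 477 CPM (median 418) in Ccl5+ and 245 to 376 CPM (median 327) in Ccl5- cells. S1pr1 was at 224 (lowest, the day 3 vehicle library), 255 (median) and 289 CPM (highest, the day 3 PPCA library) in Ccl5+ and 309 (lowest, the day 3 vehicle library), 407 (median) and 481 CPM (highest, the day 2 PPCA library) in Ccl5- cells, and the groups did not overlap. Its log2 fold change was -0.76 ± 0.046 (SE, with adjusted p = 1.31e-11). S1pr4, the other receptor of the family, differed by -0.05 ± 0.047 (SE, with adjusted p = 0.393), or 0.057 with library size alone, and was not called. The thinned share of cells with an S1pr1 UMI was 30.7% ± 3.62 against 52.2% ± 4.43 (SD, n = 8), and of cells with an Itga1 UMI 17.3% ± 5.48 against 0.0271% ± 0.0395 (SD, n = 8), with exact sign-flip p = 0.00781, adjusted p = 0.0137.

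Shares read free RNA in droplets as well as the cell's own, so 49 B-like cells with enough UMIs for thinning were read alongside. All B-like cells had medians of 2975 to 6597 UMIs per library against 3857 to 6841 for Ccl5+ CD8 cells. None of the 49 had an Itga1 or Itgae UMI, which allows a share of up to 6.12% by 3 counts of the total, or 7.25% by the exact 95% upper bound. S1pr1, which B cells also express, was found in 40.8% of them. Ccl5+ CD8 cells carried more transcripts of other lymphocytes: the 5 natural killer and innate lymphoid markers summed to 50.9 to 138 CPM against 0.601 to 3.52 CPM in Ccl5- cells (2 to 5 of 5 detected per library), and the 4 gamma-delta T markers to 84.6 to 290.3 against 7.03 to 16.6 CPM (3 to 4 of 4 detected). Of their defining genes, Ncr1 was at 0 to 4.86 CPM in Ccl5+ cells, and Trdc at 0.602 to 7.80 CPM against 3.82 to 10.1 CPM in Ccl5- cells. Cells had been sorted on TcR-beta, and the part of natural killer, innate lymphoid and gamma-delta T cells in the Itga1 difference was not tested. The 5 myeloid markers summed to 128 to 190.0 CPM in Ccl5+ and 105 to 133 CPM in Ccl5- cells (2 to 5 of 5 detected). Csf1r was at most 0.557 and Lyz2 at most 1.31 CPM in Ccl5+ cells, each at 0 in at least 1 library. The T cell gate itself limited both genes, so their low levels are no check. The 12 pancreas markers summed to 25.0 to 200.5 CPM and 15.2 to 203 CPM (9 to 11 of 12 detected), and the part of both lists was not tested.

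**Figure D2:**
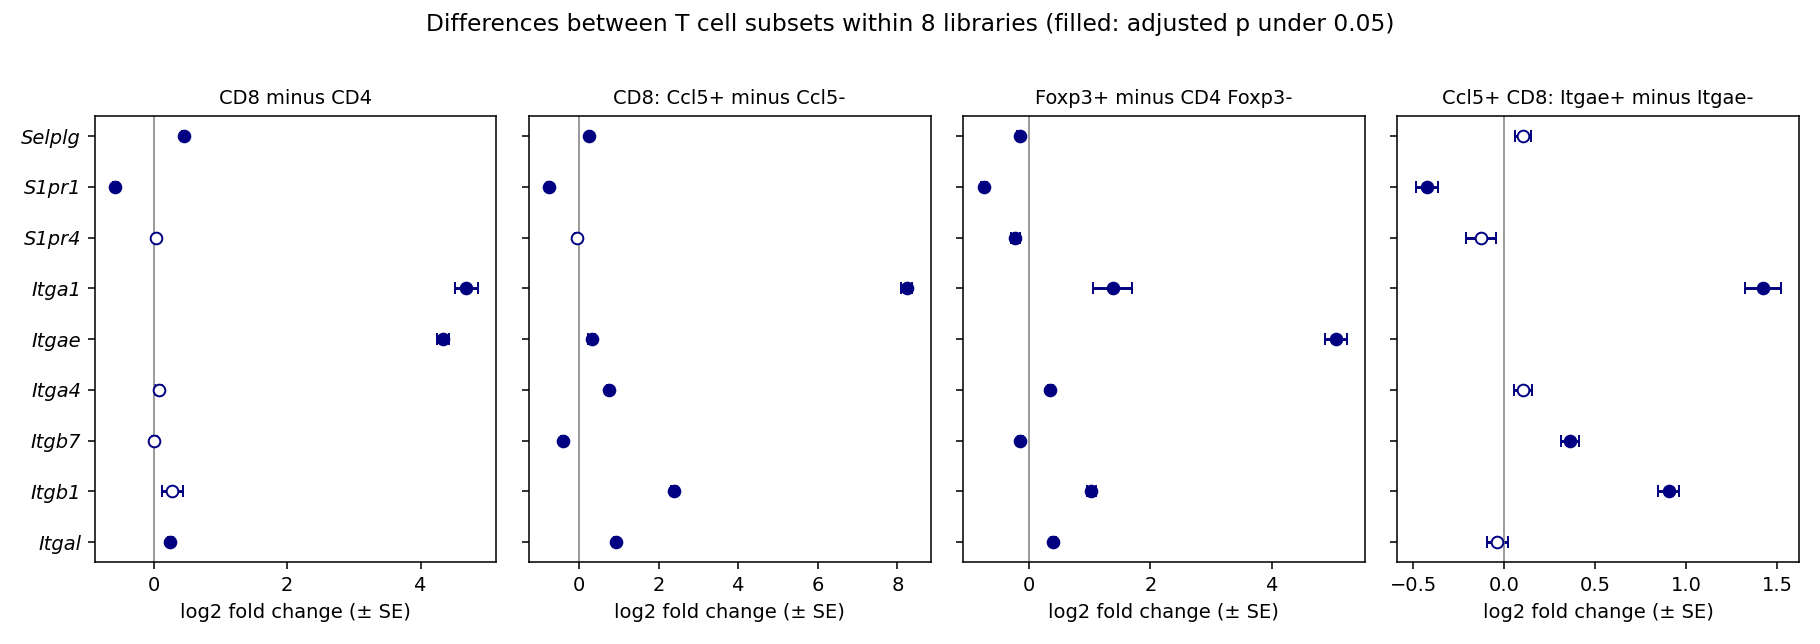
Fitted log2 fold change with its standard error for the members in the 4 subset comparisons, positive values being higher in the first-named subset. Itga1 in the Ccl5 split (8.24) and Itgae in Foxp3+ cells (5.05) lie farthest to the right, and S1pr1 lies below 0 in each comparison.

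Within Ccl5+ CD8 cells, those with an Itgae UMI (12.0% to 24.3% of the gate by library) were set against those without, to see which members accompany CD103. Itga1, Itgb1 and Itgb7 rose with Itgae and S1pr1 fell. These were 4 of the 8 members that the split itself did not use, with 10.1% of 8530 genes called (4.65% higher and 5.42% lower). Selplg, Itga4, Itgal and S1pr4 did not pass the threshold (adjusted p = 0.159, 0.206, 0.786 and 0.417).

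Itga1 was at 168 (lowest, the day 3 vehicle library), 203 (median) and 288 CPM (highest, the day 2 PPCA library) in Itgae+ and 41.8 (lowest, the day 3 vehicle library), 65.8 (median) and 193 CPM (highest, the onset library) in Itgae- cells, a log2 fold change of 1.42 ± 0.098 (SE, with adjusted p = 6.44e-14). The 2 ranges overlapped through the onset library, whose Itgae- cells already held 193 CPM. Both beta chains were higher with Itgae: Itgb1 by 0.90 ± 0.060 (SE, with adjusted p = 1.96e-14) and Itgb7, its own partner, by 0.36 ± 0.051 (SE, with adjusted p = 1.16e-06). Itgb7, which was lower in Ccl5+ than in Ccl5- cells, was thus at 207 to 389 CPM (median 331) in the Itgae+ and 155 to 290.3 CPM (median 245) in the Itgae- portion. The call for Itgb7 was lost without pairing by library (adjusted p = 0.126).

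S1pr1 was at 164 to 237 CPM (median 210.5) in Itgae+ and 225 to 297 CPM (median 268) in Itgae- cells, a log2 fold change of -0.42 ± 0.063 (SE, with adjusted p = 3.01e-06). Thinned shares gave 23.2% ± 5.91 against 32.4% ± 3.25 (SD, n = 8) for S1pr1 and 32.4% ± 4.62 against 14.0% ± 5.58 (SD, n = 8) for Itga1, lower and higher in 8 of 8 libraries. Itgae+ cells had fewer UMIs than Itgae- cells in 8 of 8 libraries (mean log2 ratio of medians -0.23), and the part of depth in the unthinned sums was not tested. With scaling by library size alone the median gene was 0.10 higher in Itgae+ cells on the log2 scale, 971 genes were called higher and 284 lower against 397 and 462 with TMM factors, and Selplg and Itga4 were then called as well (0.20 each). By share, Itga4 was in 42.5% against 40.9% of cells after thinning to 2000 UMIs (exact sign-flip test, adjusted p = 0.438) and in 56.7% against 49.5% after thinning to 3000 (adjusted p = 0.0109). Selplg was in 59.4% against 53.9% (adjusted p = 0.0713) and 74.2% against 66.8% (adjusted p = 0.0109).

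Splitting the same gate by Itga1 instead (1610 cells with and 4875 without a UMI) showed the widest gap in S1pr1 and Itgb1. After thinning, 9.61% ± 3.58 of Itga1+ cells had an S1pr1 UMI against 37.7% ± 3.30 of Itga1- cells (SD, n = 8), lower in 8 of 8 libraries. For Itgb1 the shares were 74.3% and 34.3%, and for Itgae 23.6% and 6.53%, both higher in 8 of 8. Itgal, Itga4 and Selplg were also higher in 8 of 8 libraries (44.2% against 25.7%, 53.3% against 37.3%, and 63.3% against 52.2%). Itgb7 (40.0% against 38.2%) and S1pr4 (13.8% against 15.0%) were higher in 6 and 3 of 8. The split was added after the values were seen and is a description. Cells with an Itga1 UMI had fewer UMIs before thinning, by 0.53 on the log2 scale of medians.

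**Figure D3:**
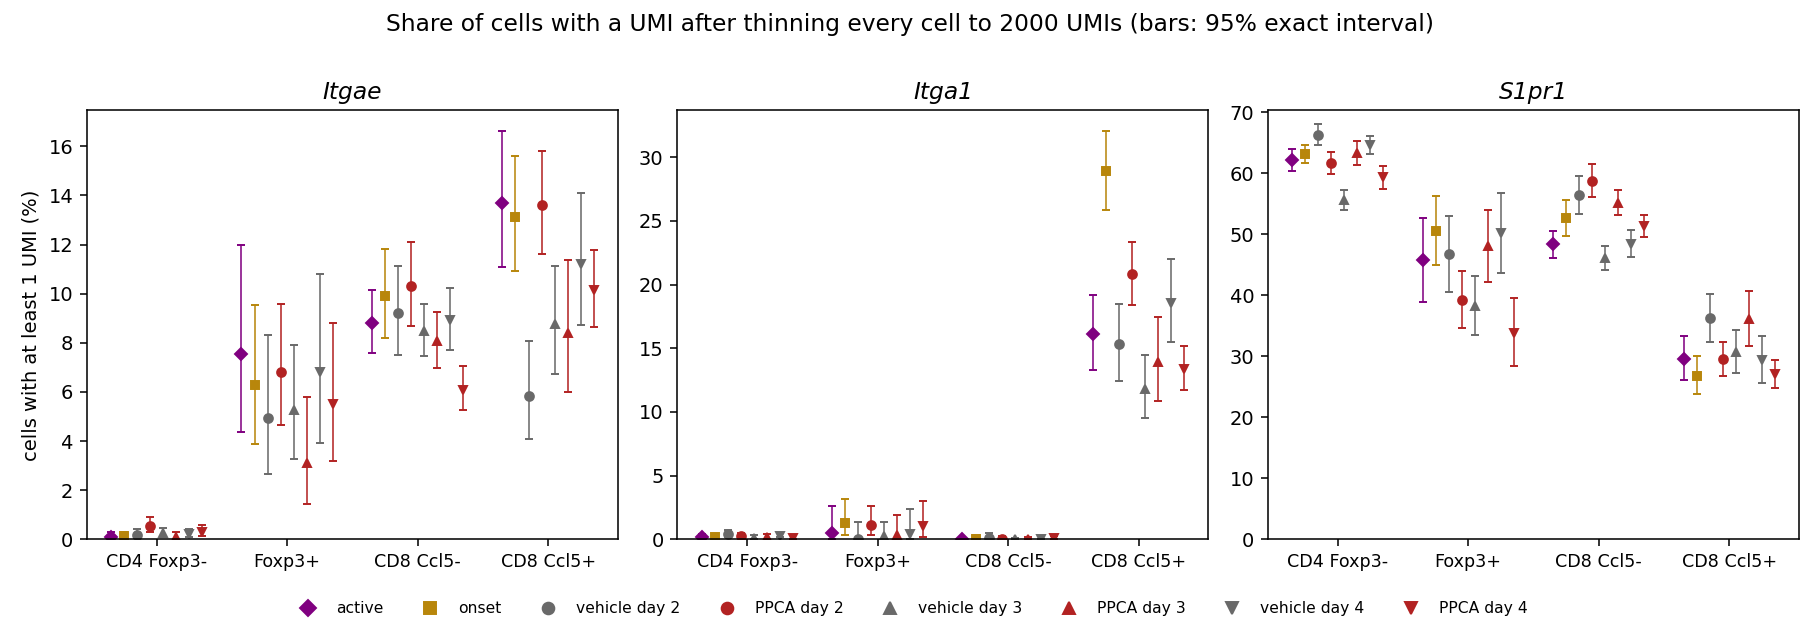
Share of cells (percent) with at least 1 UMI of Itgae, Itga1 and S1pr1 after thinning to 2000 UMIs per cell, 1 point per library with its exact 95% interval. The S1pr1 share lies lower and the Itga1 share higher in Ccl5+ than in Ccl5- CD8 cells in each of the 8 libraries.

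Foxp3+ cells were set against CD4 cells without Foxp3. All 9 members were called, against 38.2% of 10655 genes (18.9% higher and 19.4% lower): Itgae, Itga1, Itgb1, Itgal and Itga4 higher, and S1pr1, S1pr4, Selplg and Itgb7 lower. Itgae was at 29.6 (lowest, the day 3 PPCA library), 41.4 (median) and 57.2 CPM (highest, the day 4 vehicle library) in Foxp3+ cells and at 0.421 (lowest, the day 3 PPCA library), 1.11 (median) and 2.31 CPM (highest, the day 2 PPCA library) in the CD4 cells. The groups were far apart, with a log2 fold change of 5.05 ± 0.18 (SE, with adjusted p = 4.03e-19) and a pooled ratio of 37.6 (exact 95% interval 31.3 to 45.4). The thinned share with an Itgae UMI was 5.78% ± 1.40 against 0.233% ± 0.150 (SD, n = 8).

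The Foxp3 gate did not require Cd4: 35.4% to 53.5% of its cells per library were in the CD4 gate and 7.38% to 11.6% in the CD8 gate. Itgae was found in 5.57% ± 1.39 of thinned CD4-gated Foxp3+ cells (SD, n = 8), and in 13.1% of the CD8-gated ones pooled over libraries. The Itgae transcript was therefore not confined to the CD8-gated fraction. CD4 cells with a Ccl5 UMI, a further comparison added after the values were seen, had Itgae in 0.611% and Itga1 in 1.06% of cells.

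Itgb1 was at 163 (lowest, the active library), 335 (median) and 446 CPM (highest, the day 2 vehicle library) in Foxp3+ cells and at 62.2 (lowest, the active library), 119.7 (median) and 307 CPM (highest, the day 4 PPCA library) in CD4 cells without Foxp3, higher in 8 of 8 libraries with a log2 fold change of 1.03 ± 0.081 (SE, with adjusted p = 1.55e-11). Itgal and Itga4 were 0.40 and 0.35 higher (adjusted p = 1.25e-08 and 7.47e-07). S1pr1 was at 278 to 454 CPM (median 377) against 442 to 613 CPM (median 557), lower in 8 of 8 libraries with a log2 fold change of -0.74 ± 0.046 (SE, with adjusted p = 1.12e-13). The Itga1 difference of 1.38 ± 0.32 (SE, with adjusted p = 0.000923) rested on 53 UMIs in Foxp3+ cells, 22 of them in the PPCA day 2 library and 11 in the onset library, and within the libraries with Y-linked transcripts it was 0.59 (adjusted p = 0.436). Of thinned Foxp3+ cells in the CD4 gate, 4 of 1088 had an Itga1 UMI (0.368%, exact 95% interval 0.10 to 0.94), against 0.214% of CD4 cells without Foxp3. The share over the whole Foxp3 gate was 0.615%, short of the threshold in an exact sign-flip test (adjusted p = 0.0984), and 0.792% against 0.287% at 3000 UMIs, past it (adjusted p = 0.0109).

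Of the 4 decreases, 3 were small. Fitted with TMM factors, S1pr4 fell by 0.22, Selplg by 0.16 and Itgb7 by 0.14 on the log2 scale (adjusted p = 0.0118, 0.00209 and 0.00259). With library size alone, which raised the median gene by 0.18, the values were -0.032, 0.035 and 0.048 and none was called, whereas DESeq2 size factors, DESeq2 and limma-voom kept all 4 decreases. The 2 scalings also split the called genes differently, 2011 higher and 2063 lower with TMM against 4319 and 834 with library size alone. All 3 calls were also lost without pairing, and S1pr4 without the active library (adjusted p = 0.0584) or the vehicle day 3 library (adjusted p = 0.0610). The S1pr4 call was lost after thinning (adjusted p = 0.0981), that of Itgb7 with gates at 2 UMIs (adjusted p = 0.209), and both within the libraries without Y-linked transcripts (adjusted p = 0.234 and 0.110). By share after thinning to 2000 UMIs, Selplg, Itgb7 and S1pr4 did not pass exact sign-flip tests (adjusted p = 0.424, 0.405 and 0.487). At 3000 UMIs Itgb7 alone of these passed (54.9% against 57.0%, adjusted p = 0.0421). Foxp3+ cells had fewer UMIs in 8 of 8 libraries (mean log2 ratio of medians -0.25), and the part of depth was not tested. B cell markers summed to 241 to 418 CPM in Foxp3+ cells against 104 to 210.2 CPM (2 to 4 of 5 detected), with Cd79a at most 2.28 and Ms4a1 at most 0.99 CPM, and their part in these values was not tested. Myeloid markers summed to 142 to 196 CPM in Foxp3+ cells against 113 to 133 CPM (2 to 5 of 5 detected), with Csf1r at 0 to 0.473 and Lyz2 at 0 to 1.52 CPM in Foxp3+ cells. The T cell gate itself limited Cd79a, Ms4a1, Csf1r and Lyz2, so their low levels are no check. Pancreas markers summed to 41.5 to 378 CPM against 9.34 to 335 CPM (8 to 11 of 12 detected), and the part of both lists was not tested.

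Across libraries, S1pr4, Selplg, Itgb7 and Itgal had low points on day 4, and the share of all genes that did was not counted. Other genes had them too. Itgb2 was lowest at PPCA day 4 in CD4 and CD8 cells (116 and 108 CPM). Over all T cells Cd3d, Cd3g, Trbc1 and Trbc2 were also lowest there, while Cd3e and Trac were lowest at vehicle day 3. S1pr4 in CD4 cells was at 110.3 CPM in the active library, 79.0 at onset, and 90.6, 79.7 and 46.9 CPM with vehicle and 80.2, 74.8 and 53.3 CPM with PPCA on days 2, 3 and 4. The CD8 values were 104, 78.8, and 89.9, 73.5 and 48.3 CPM with vehicle and 84.7, 78.8 and 53.4 CPM with PPCA on days 2, 3 and 4. In both lineages the active library was the highest and the 2 day 4 libraries the lowest.

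Selplg was likewise lowest in the 2 day 4 libraries in CD4 cells without Foxp3, Foxp3+ cells and both CD8 subsets, for example 313 and 345 CPM in Ccl5+ CD8 cells, where the other 6 lay between 386 and 477 CPM. Itgb7 was lowest in the PPCA day 4 library in the same 4 subsets (193, 189.7, 216 and 163 CPM). Itgal was lowest there or in the vehicle day 4 library: in Ccl5+ CD8 cells the PPCA day 4 value was 128 CPM against a median of 188. The PPCA day 4 library was also the one with the fewest UMIs per cell (median 3850). B cell markers were lowest in the same 2 libraries, at 141 (vehicle day 4) and 109 CPM (PPCA day 4) in CD4 cells against 178 to 223 in the other 6, and at 143 and 102 CPM in CD8 cells against 164 to 222 (3 to 5 of 5 detected), and their part was not tested.

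Klf2, which drives S1pr1, was highest in the PPCA day 4 library in CD4 and CD8 cells (2123 CPM in CD4 cells against 560.0 in the lowest, PPCA day 2), whereas in Foxp3+ cells its highest value was that of the vehicle day 4 library (1465 CPM). Cd69, whose product removes S1pr1 from the surface, was highest at PPCA day 4 too (1199 CPM in CD4 cells, with a minimum of 156 at PPCA day 2). S1pr1 itself spanned a narrower range in CD4 cells, 433 to 603 CPM (median 545). With 1 library per treatment and day, harvest day, length of treatment and library cannot be told apart.

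**Figure D4:**
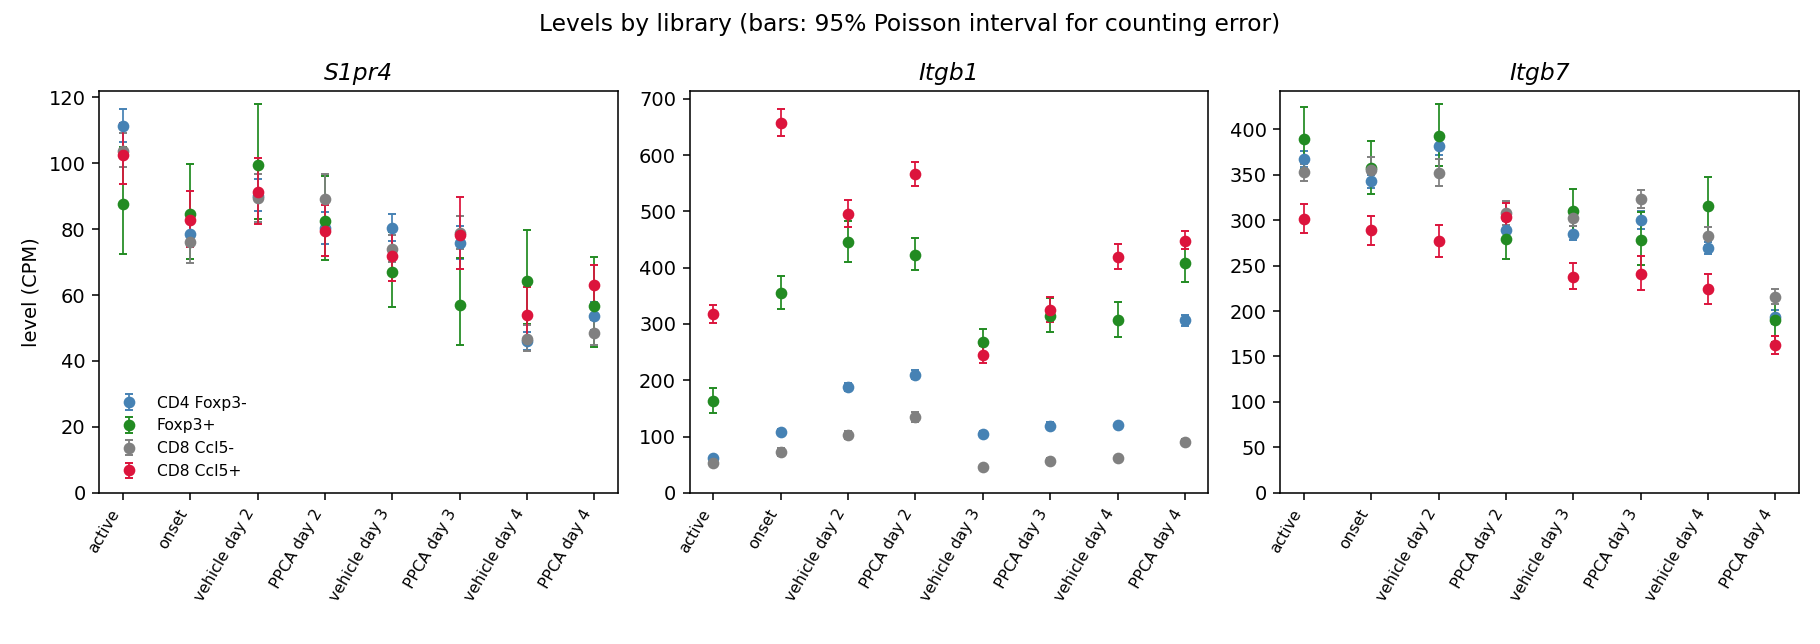
Level of S1pr4, Itgb1 and Itgb7 in CPM by library in 4 T cell subsets, with 95% Poisson intervals that cover counting error only. S1pr4 in CD4 cells without Foxp3 lies highest in the active library (111 CPM) and lowest in the day 4 libraries (46.0 and 53.6 CPM), and Itgb7 lies lowest in the PPCA day 4 library in each subset shown.

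PPCA and vehicle were compared in each subset with harvest day as a block (3 libraries per arm). No member was called in any of the 5 subsets. The background of called genes was as low: 0.0% of 11589 genes in CD4 cells, 0.0% of 11617 in CD8 cells, 0.0201% of 9975 in Ccl5+ CD8 cells, 0.0% of 11065 in Ccl5- CD8 cells and 0.0594% of 8412 in Foxp3+ cells. DESeq2 and limma-voom called none of the 9 members either, and at an unadjusted p under 0.05 edgeR had 807, 914, 653, 826 and 536 genes, with 1, 1, 0, 3 and 1 of the members among them.

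Itgb7 in Foxp3+ cells came closest, at 392, 310.0 and 315 CPM with vehicle and 279, 279 and 189.7 CPM with PPCA on days 2, 3 and 4. PPCA was lower on 3 of 3 days, and the arms overlapped in none of their values. The log2 fold change was -0.49 ± 0.12 (SE, unadjusted p = 0.00201, adjusted p = 0.318). In CD4 cells Itgb7 was at 383, 287 and 272 CPM with vehicle and 288, 298 and 194 CPM with PPCA on days 2, 3 and 4, lower on 2 of 3 days, with -0.37 ± 0.11 (SE, unadjusted p = 0.0114, adjusted p = 0.681).

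Itgb1 and Itga4, which pair with each other, were above vehicle on 3 of 3 days in CD4, CD8 and both Ccl5 subsets of CD8 cells, without passing the test. Itgb1 in CD4 cells was at 205, 114 and 125 CPM with vehicle and 227, 130.0 and 313 CPM with PPCA on days 2, 3 and 4, and in CD8 cells at 242, 88.4 and 139.6 CPM with vehicle and 326, 104 and 211 CPM with PPCA on days 2, 3 and 4. PPCA was higher on 3 of 3 days in both, while the arms overlapped. The fits gave 0.47 ± 0.23 (SE, unadjusted p = 0.0848, adjusted p = 0.744) and 0.33 ± 0.12 (SE, unadjusted p = 0.0219, adjusted p = 0.601). The makeup of the CD8 cells also differed: Ccl5+ cells were 36.3%, 20.3% and 22.1% of CD8 cells with vehicle and 46.1%, 16.7% and 34.9% with PPCA on days 2, 3 and 4. On day 3 that share was lower with PPCA while CD8 Itgb1 was higher, and its part in the CD8 values was not tested.

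Within the Ccl5 split, the log2 ratios of PPCA to vehicle for Itgb1 were 0.19, 0.40 and 0.10 in Ccl5+ and 0.38, 0.29 and 0.56 in Ccl5- cells by day. The Ccl5- fit gave 0.33 ± 0.11 (SE, unadjusted p = 0.0138, adjusted p = 0.611), and with the Y-linked transcripts as a further term it passed (0.33, adjusted p = 0.0110), a term that PPCA and vehicle share unequally by day. Itga4 ratios were 0.20, 0.19 and 0.65 in CD4 cells and 0.26, 0.25 and 0.07 in Ccl5+ CD8 cells. By share after thinning to 2000 UMIs, Itga4 and Itgb1 were higher with PPCA on 3 of 3 days in all 5 subsets, as in 30.1% against 40.3% of Foxp3+ cells for Itgb1 and 25.2% against 29.2% of Ccl5- CD8 cells for Itga4. An exact sign-flip test over 3 days cannot go below p = 0.25, the value of each of these, and unthinned Itga4 in Ccl5- CD8 cells was higher with PPCA on 0 of 3 days. After thinning to 3000 UMIs, Itga4 was higher on 1 of 3 days in Ccl5+ CD8 cells and on 2 of 3 in Foxp3+ cells, while Itgb1 was higher on 3 of 3 in all 5 subsets.

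The residency-associated chains gave no common direction. Itga1 in CD8 cells was at 29.7, 12.5 and 22.0 CPM with vehicle and 56.9, 13.9 and 26.2 CPM with PPCA on days 2, 3 and 4, with 0.37 ± 0.16 (SE, unadjusted p = 0.0549, adjusted p = 0.633), and in Ccl5+ cells at 81.9, 59.2 and 100.2 CPM with vehicle and 128, 79.0 and 76.7 CPM with PPCA on days 2, 3 and 4. Itgae in Ccl5+ cells was at 40.1, 39.4 and 71.9 CPM with vehicle and 77.6, 42.6 and 56.6 CPM with PPCA on days 2, 3 and 4, higher with PPCA on days 2 and 3 and lower on day 4. For S1pr1, Ccl5- CD8 cells had log2 ratios of 0.12, 0.52 and 0.13 and CD4 cells -0.17, 0.38 and -0.11. The PPCA effect on Itga1 differed between CD8 and CD4 cells by 0.86 ± 0.25 (SE, unadjusted p = 0.00438, adjusted p = 1), in a test that called 0.00822% of 12163 genes. That on Itgae differed between the Ccl5 subsets by 0.44 ± 0.19 (SE, unadjusted p = 0.0289, adjusted p = 1), where 0.0% of 10962 genes were called.

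The active and onset libraries were 1 sample each, so their values are given with exact Poisson intervals that cover counting error only, and without a test. Itgb1 was lower in the active library in each of the 5 subsets. It was at 317 CPM (301 to 334) in the active and 657 CPM (633 to 681) in the onset library in Ccl5+ CD8 cells, and at 163 CPM (142 to 186) in the active and 355 CPM (326 to 385) in the onset library in Foxp3+ cells. Itga1 in CD8 cells was at 26.3 CPM (24.1 to 28.7) in the active and 85.2 CPM (79.9 to 90.7) in the onset library. These intervals did not overlap. By a rule of at least 2-fold with 50 CPM or more in the higher library, members were called 1 time in Foxp3+ cells (Itgb1, log2 ratio -1.12), 2 times in CD8 cells (Itgb1, -1.39, and Itga1, -1.69) and 1 time in Ccl5+ CD8 cells (Itgb1, -1.05), with 1.42%, 1.7% and 1.72% of all genes past it (0.727%, 1.37% and 1.35% lower in the active library, as all 4 member calls were). In CD4 and Ccl5- CD8 cells no member was called, against 0.829% and 0.899% of genes (0.397% and 0.562% lower). The call of Itgb1 in Ccl5+ CD8 cells was lost with TMM-scaled CPM (-0.99), without doublet removal (-0.99) and after thinning (-0.66), and the other 3 calls were kept.

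The CD8 values stood beside a different makeup, since Ccl5+ cells were 24.5% of CD8 cells in the active and 43.0% in the onset library. Within Ccl5+ cells Itga1 was at 110.1 CPM (101 to 120.0) in the active and 213 CPM (200.0 to 227) in the onset library, again without overlap. Itgae in Ccl5+ cells was at 79.5 and 88.2 CPM. S1pr1 differed little in CD4 cells, at 521 and 538 CPM. S1pr4 was higher in the active library, at 110.3 CPM (106 to 115) in the active and 79.0 CPM (75.5 to 82.5) in the onset library in CD4 cells.

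Genes that work with these receptors were read from 4 lists. In the Ccl5 split, where 41.3% of all genes were called (19.6% higher and 21.7% lower), the integrin partners and activators had 5 higher and 3 lower of 10 tested (16 listed). Itgb2, the partner of Itgal, rose by 0.67 with it and Itgav by 0.25, whereas Itga6, a laminin-binding alpha chain, gave -0.71 and Rasgrp2, which activates the integrin switch Rap1, -0.49. The enzymes that glycosylate or sulfate PSGL-1 had 4 higher and 1 lower of 7 tested (10 listed): the sialyltransferases St3gal6 and St3gal4 were at 1.72 and 0.49, and the tyrosine sulfotransferases Tpst2 and Tpst1 at 0.23 and -0.64. The median log2 fold change over these lists was 0.09 and 0.14, against -0.02 over all genes.

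Genes of exit and recirculation had 4 higher and 6 lower of 11 tested (12 listed; median -0.17). Ccr7, the chemokine receptor that directs T cells into lymph nodes, was -1.07 on the log2 scale, and Klf2 was -0.61, the same sign as S1pr1. The oxysterol receptor Gpr183 (1.76) and S1pr2 (1.43), which restrains migration, had the opposite sign, and Cd69 was not called (-0.06, adjusted p = 0.607; 0.051 with library size alone), though it was without the low-count filter (-0.097, adjusted p = 0.0260). Genes linked to residency had 10 higher and 2 lower of 14 tested (15 listed; median 1.02), among them the transcription factors Prdm1 (3.62) and Bhlhe40 (3.57), Rgs1 (3.47), which damps chemokine signals, and the surface receptor Cd101 (2.89).

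Within Ccl5+ CD8 cells, Itgae+ cells had 8 residency genes higher and 0 lower of 14 tested (median 0.36 against 0.01 over all genes), and 0 exit genes higher and 4 lower of 10. Gpr183, higher in Ccl5+ cells, was lower in their Itgae+ portion (-1.26), as were Klf2 (-0.57) and Ccr7 (-0.31). The Ccr7 call was lost within the libraries without Y-linked transcripts (-0.27, adjusted p = 0.0521) and without both day 4 libraries (-0.22, adjusted p = 0.0903). Without pairing by library the Klf2 and Ccr7 calls were lost in the Itgae split (adjusted p = 0.547 and 0.488) and in Foxp3+ cells (adjusted p = 0.212 and 0.0671), and that of Klf2 in the Ccl5 split (adjusted p = 0.186). Foxp3+ cells had 9 residency genes higher and 3 lower of 14 (median 0.91), and 2 exit genes higher and 6 lower of 11, with Klf2 at -0.59 and Ccr7 at -0.57. CD8 against CD4 cells gave 5 higher and 7 lower of 14 residency genes and 1 higher and 6 lower of 11 exit genes. The shares of all genes called were 38.2% for Foxp3+ cells, 46.3% for CD8 against CD4 and 10.1% for the Itgae split. For PPCA, no gene of the 4 lists was called in any subset by the fit used here. With Y-linked transcripts as a term (1 residual degree of freedom), Cd69 was called lower in CD4 (-0.64, adjusted p = 0.0147), CD8 (-0.64, adjusted p = 0.00542), Ccl5+ (-0.54, adjusted p = 1.48e-05) and Ccl5- cells (-0.63, adjusted p = 3.27e-07), and it was also called in these 4 subsets without the low-count filter. Without the day 4 pair Cd69 was called in CD8 (-1.0), Ccl5- (-0.96) and Foxp3+ cells (-0.84). Klf2 was called lower in Foxp3+ cells with the Y-linked term (-0.50), without the filter (-0.50) and without the day 4 pair (-0.68), and in Ccl5+ cells without that pair (-0.59).

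Patterns like those of the members were ranked by Pearson correlation of log2(CPM + 1) over 32 points, 4 subsets in 8 libraries, among 5424 genes averaging at least 20 CPM. The points share cells of the same libraries and their depth, so the values are descriptions. The genes nearest to Itga1 were Klrc1 (0.974), Klre1 (0.962), Gzmk (0.958), Klrk1 (0.956), Efhd2 (0.945), of which Klrc1, Klre1 and Klrk1 encode natural killer cell receptors and Gzmk a granzyme. Nearest to Itgae were Pmepa1 (0.943), Cst7 (0.934), Hdgfl3 (0.921), Ehd1 (0.899), Sec11c (0.887), and nearest to S1pr1 were Mpp6 (0.897), Bzw2 (0.885), Atp1b3 (0.880), Ifngr2 (0.878), Atp1b1 (0.868).

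The authors' deposited table of cluster markers placed several members in named clusters. In the authors' deposited table, Itga1 marked the CD8 cluster they call TRM TEM, at an average log2 fold change of 1.67. The authors' deposited table gave Itgb1 for the same cluster (1.87) and, at 2.95, for a CD4 cluster they call Th17. Itgae was listed in the authors' deposited table for 2 CD8 clusters, TRM TEM (0.84) and TCM (0.38). S1pr1 was listed in the authors' deposited table for the CD4 naive (0.43) and Th17 (0.53) clusters. Their clusters differ from the transcript gates used here.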

How the data were processed

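UMI counts per gene and cell were deposited as filtered 10x matrices, made with Cell Ranger (version 6.0.0 per the file headers, 6.1.2 per the submitters' processing notes, which also name Seurat). The genome build is not given in the sources used here, so positions come from GENCODE M21 by gene ID. The authors' deposited marker table gives log2 fold changes and p-values. The p-values were not used.

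Cells with at least 500 genes, under 10% mitochondrial UMIs and at least 2 T cell receptor or CD3 UMIs were kept after removal of the cells with the highest Scrublet scores (0.8% per 1000 cells). Kept cells also had at most 1 UMI over Cd79a, Cd79b, Ms4a1, Lyz2, Csf1r and Cd68. UMIs were summed per library and subset and fitted with edgeR 4.0.16 (quasi-likelihood, TMM, filterByExpr, R 4.3.3), with DESeq2 1.42.0 and limma 3.58.1 as alternatives and Benjamini-Hochberg adjustment at 0.05. The fit was tested on simulated counts. Subset fits had library as a block, since each library gives both subsets. PPCA fits had harvest day as a block, since same-day libraries deviated together in each subset and on each day (r = 0.19 to 0.54 across genes). Thinning to 2000 UMIs left out 1.04% to 4.34% of cells per subset. Shares were compared by exact sign-flip tests (scipy 1.17.1), and 95% intervals cover counting error only.

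The genes named are the 9 members, Klf2, Cd69, Ccr7, Itgb2, up to 4 genes of each of 4 related lists with the largest change in the Ccl5 split, and the 5 genes most like Itga1, Itgae and S1pr1, apart from an item that is not reported here. Members and lists were chosen with earlier results of these data known.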

Additional observations from a re-analysis of the deposited data

Results flagged for a closer look

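Over the 8 libraries, 33 sets of log2 ratios between subsets were checked for a library standing apart, by the gap to its nearest neighbour over the whole range (critical value 0.526 for 8 libraries), and 2 were found, where chance gives about 1 in 20. Both concern Itgae+ against Itgae- cells of the Ccl5+ CD8 gate. For S1pr4 the PPCA day 4 library had a log2 ratio of 0.41, higher in Itgae+ cells, where the other 7 libraries lay at or below 0. For Itga1 the onset library had the lowest ratio, 0.55, its Itgae- cells holding 193 CPM of Itga1 against a median of 65.8 CPM. The cause was not tested for either.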

How the results depend on the processing

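The members called in the 4 subset comparisons numbered 5 to 6 (CD8 against CD4), 8 (Ccl5 split), 8 to 9 (Foxp3, where Itga1 fell below the low-count filter without either day 2 library and so was not tested) and 4 (Itgae split) when single libraries were left out, with 7 in the Ccl5 split without both day 4 libraries, and no member was called for PPCA without any day pair or library. Library size alone reversed the sign of S1pr4 in the Ccl5 split (0.057) and of Selplg (0.035), Itgb7 (0.048) and Cd69 (0.12) in the Foxp3 comparison, and Cd69 in the Ccl5 split, called under neither scaling, went from -0.06 to 0.051. Thinning reversed Itgb2 in the Foxp3 comparison (-0.062) and, in summed UMIs though not in shares of cells, Itga4 in the Itgae split (-0.10). Within the libraries with Y-linked transcripts, Itga4 (-0.061) and Itgb1 (-0.20) were reversed between CD8 and CD4 cells. The cause was not tested.

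Over all genes, calls in the 4 subset comparisons moved from 5341 to 3190 with thinning and 2025 with no replicate block (CD8 against CD4), from 4278 to 1978 with no replicate block and 2779 within the libraries with Y-linked transcripts (Ccl5), from 4074 to 2169 with thinning and 2254 with no replicate block (Foxp3), and from 859 to 469, 207, 549 without and 425 with Y-linked transcripts (Itgae split: thinned, no replicate block, and the 2 sets of libraries). Fewer libraries or UMIs enter these sets and the thinned fits. Without the block Itgal, Itgae, Selplg, S1pr4 and Itgb7 lost calls given in the report, as did Klf2 in the Ccl5, Foxp3 and Itgae comparisons and Ccr7 in the CD8, Foxp3 and Itgae comparisons.

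For PPCA the counts over all genes were small and unsteady. CD4 cells had 0, with 34 by DESeq2, 137 without the low-count filter, 78 with a Y-linked term and 0 to 19 leaving out libraries. CD8 cells had 0, with 41 by DESeq2, 2 by limma-voom, 157 without the filter, 2 with library size alone, 2 with gates at 2 UMIs, 3 thinned, 148 with the Y-linked term and 0 to 147 leaving out libraries. Ccl5+ cells had 2, with 1 by DESeq2 size factors, 19 by DESeq2, 134 without the filter, 1 with gates at 2 UMIs, 0 with no replicate block, 258 with the Y-linked term and 0 to 58 leaving out libraries. Ccl5- cells had 0, with 31 by DESeq2, 1 by limma-voom, 166 without the filter, 18 with library size alone, 2 thinned, 349 with the Y-linked term (1 member, Itgb1) and 0 to 159 leaving out libraries. Foxp3+ cells had 5, with 101 without the filter, 10 with library size alone, 28 with gates at 2 UMIs, 3 thinned, 0 with no replicate block, 63 with the Y-linked term and 0 to 54 leaving out libraries. The highest of each range came without the day 4 pair. The difference of the PPCA effect between CD8 and CD4 cells had 1, with 56 without the filter, 0 with no replicate block and 0 to 1 leaving out day pairs, and that between the Ccl5 subsets had 0, with 19 without the filter and 0 to 2.

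With 3 libraries per arm and 2 residual degrees of freedom, PPCA differences of the size seen for Itgb7 and Itgb1 did not pass the adjustment over all genes. This held for Itgb7 in Foxp3+ cells too, although its arms did not overlap. Itga1 rests on 25 UMIs in Ccl5- CD8 cells and 53 in Foxp3+ cells, so its level there is set by counting. Members called between active and onset numbered 4, and 3 with TMM-scaled CPM, without doublet removal or after thinning, Itgb1 in Ccl5+ CD8 cells being the one lost each time.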
